A study of Mus musculus with 6 samples.

Results

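The antimicrobial products of Paneth cells were followed in mouse intestinal organoids grown in low glutamine medium. The set comprised 37 of the 24956 rows of the deposited expression table. Of these, 28 were alpha-defensin rows, taken as every symbol that starts with Defa followed by a digit or hyphen, together with AY761184. The other 9 rows were Lyz1, Lyz2, Mmp7, Ang4, Itln1, Pla2g2a, Mptx1, Mptx2 and Habp2. The organoids carried Apc Min, a truncating allele of the Wnt pathway inhibitor Apc, in both groups. They were described as primary cells kept in vitro, and total RNA was sequenced from 3 control libraries (control medium) and 3 low glutamine libraries. The libraries of a group are biological replicates by the design text, which leaves unsaid whether each had its own culture or animal, so the p-values measure only the spread between these libraries, which may be technical. The glutamine concentrations, the time in each medium, the gut region and the mice are not given in the sources used here. According to its title, the series concerns α-ketoglutarate, a metabolite that cells make from glutamine, Wnt signalling and differentiation in colorectal cancer. The comparison therefore asked how the Paneth programme stood when glutamine was limited.

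Paneth cells sit between the stem cells at the base of small intestinal crypts and release granules of antimicrobial proteins into the crypt lumen. Their main products are alpha-defensins, called cryptdins in the mouse, which are short cationic peptides stabilised by disulphide bonds that permeabilise bacterial membranes. The mouse alpha-defensin genes form an array of near-identical copies on chromosome 8, and the matrix metalloproteinase Mmp7 cuts the secreted precursors into active peptides. Wnt signalling through TCF/LEF factors is needed for Paneth cell maturation and for cryptdin transcription.

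The near identity of the copies limits what a single row can show, so their sequences come first. The last coding exon carries the mature peptide. Below it is given for copies that differ in level or response, in the mm10 build with GENCODE M21 transcripts, all on the plus strand. Capitals mark bases that differ from Defa17, position by position over 110 bases.
Defa17: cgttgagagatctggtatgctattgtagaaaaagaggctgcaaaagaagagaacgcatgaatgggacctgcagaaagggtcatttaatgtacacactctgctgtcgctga
Defa24: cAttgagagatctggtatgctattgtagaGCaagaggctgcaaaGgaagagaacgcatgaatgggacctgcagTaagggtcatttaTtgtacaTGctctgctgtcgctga
Defa30: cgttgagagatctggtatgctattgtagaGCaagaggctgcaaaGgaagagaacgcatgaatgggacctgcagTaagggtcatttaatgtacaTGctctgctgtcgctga
Defa23: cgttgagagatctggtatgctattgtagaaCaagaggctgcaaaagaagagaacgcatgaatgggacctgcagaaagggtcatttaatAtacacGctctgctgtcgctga
Defa36: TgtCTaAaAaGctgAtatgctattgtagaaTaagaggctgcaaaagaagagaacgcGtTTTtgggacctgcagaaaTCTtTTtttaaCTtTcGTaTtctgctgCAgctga
Defa21: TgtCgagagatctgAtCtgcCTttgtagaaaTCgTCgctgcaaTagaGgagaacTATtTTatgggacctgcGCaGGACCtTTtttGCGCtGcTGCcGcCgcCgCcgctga
Defa17, with the highest mean of all defensin rows in low glutamine, lies at chr8:21656532-21656641, and Defa24 lies at chr8:21735268-21735377. The exon of Defa3, at chr8:21288174-21288283, had 0 differences from Defa17. The exon of Defa24 had 8 differences from it, Defa30 (chr8:21135394-21135503) had 6, and Defa23 (chr8:21055812-21055921) and Defa31 each had 3. Farther from Defa17 stood Defa36 (chr8:21428189-21428298), with 25 differences, and Defa21 (chr8:21026314-21026423), with 38. Over whole transcripts, the closest other copy was 97.0% to 100% identical for each of the 28 alpha-defensin copies with a coding transcript, 23 of them rows of the set. Defa23 and Defa31 were identical over 377 bases, and Defa36 and Defa37 over 403. The deposited table held values far below that of 1 read, such as 1.98e-33 RPKM for Defa25 in control replicate 1, so reads had been divided fractionally among copies. Values are RPKM as deposited, that is, reads scaled by transcript length and by the mapped reads of the library. A row is therefore read below together with the sum of its closest copies, and which copy a symbol denotes may differ between annotations.

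The alpha-defensins rose in low glutamine. The summed RPKM of the 28 rows was 2334, 2258 and 1871 in the 3 control libraries and 9355, 8802 and 8312 in the 3 low glutamine libraries. The sums did not overlap, and their means were 2154 ± 248 and 8823 ± 522 (SD, n = 3 each), a ratio of 4.10. Adding 5 rows that carry other symbols but are alpha-defensins in RefSeq gave a ratio of 4.16. In a limma fit on log2(RPKM + 1) with Benjamini-Hochberg adjustment over all tested genes, 23 of the 24 defensin rows that could be tested were higher, 0 were lower and 1, Defa27, did not pass. Of all 11082 tested genes, 36.1% were called higher and 66.4% were called in either direction, so a call by itself is common in these libraries. A call with a log2 fold change of at least 1 was found for 23 of the 24 defensins and for 4.22% of all tested genes, and one of at least 2 for 15 of the 24 and for 0.929%. Close copies share reads, so these are not counts of independent genes. The median log2 fold change of the tested defensins was 2.40, ranging from 0.94 to 4.89, against a median of 0.03 over all tested genes. In bulk RNA, more Paneth cells and more defensin RNA per Paneth cell cannot be told apart. The groups also differed in sex-linked genes: Xist, the RNA of the inactive X chromosome, averaged 87.3 RPKM in control and 0.0286 in low glutamine, and Eif2s3y on the Y chromosome averaged 27.7 in low glutamine and was at 0 in the 3 control libraries. The medium and this difference between the organoids cannot be told apart in any result given here.

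Rows were tested where they averaged 1 RPKM or more across all 6 libraries. That filter left out Defa-ps12 and Defa-ps13, listed at 0 in every library, and Defa25 and Defa4, which stayed at or below 1.16 RPKM. Among the rows that passed, 6 had a control mean under 1 RPKM (AY761184, Defa-ps1, Defa5, Defa27, Defa28 and Defa35), so they passed only because of their low glutamine values. Among the 18 with a control mean of at least 1 RPKM, 18 were higher, and 33.9% of all tested genes with that control mean were higher. The lowest low glutamine library was above the highest control library for 22 of the 24 defensins and for 38.9% of all tested genes. The 2 rows with overlap were Defa3 and Defa27.

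**Figure D1:**
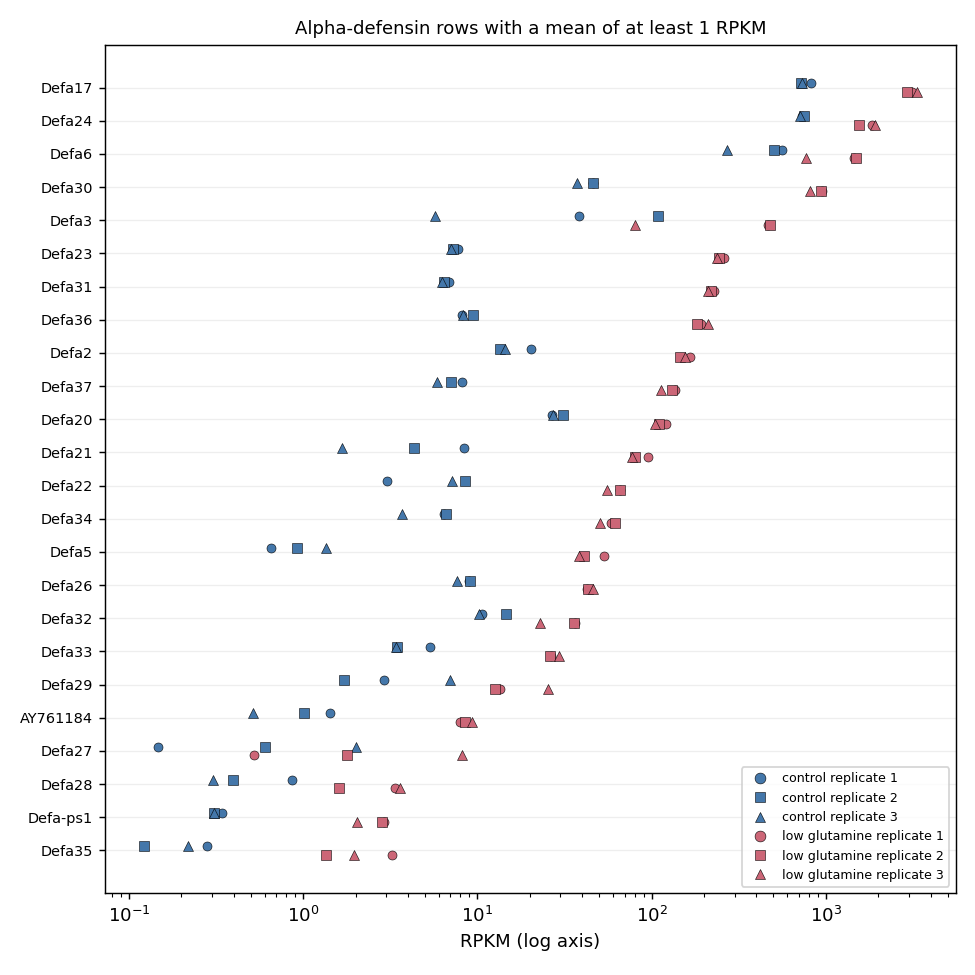
RPKM of the 24 tested alpha-defensin rows (log axis) in 3 control libraries (blue) and 3 low glutamine libraries (red), with 1 marker shape per replicate number. In 22 rows every red point lies to the right of every blue point; Defa3 and Defa27 overlap.

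Defa17, Defa24 and Defa6 dominated the defensin RNA of control organoids. Defa17 measured 826, 720 and 730 RPKM in control and 3129, 2927 and 3334 in low glutamine. Its log2 fold change was 2.04 ± 0.08 (SE; limma adjusted p = 5.8e-10). Defa24 went from 731, 749 and 711 RPKM to 1842, 1551 and 1919, a log2 fold change of 1.27 ± 0.09 (limma adjusted p = 6.7e-08). Defa6 measured 564, 507 and 271 RPKM in control and 1454, 1491 and 769 in low glutamine. That is a log2 fold change of 1.47 ± 0.27 (limma adjusted p = 4.3e-04). Replicate 3 was the lowest Defa6 library of each group, and the groups still did not overlap.

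Summed, the other defensin rows rose more steeply in proportion than these 3. Together, Defa17, Defa24 and Defa6 made up 90.0% ± 2.15 of the summed defensin RPKM in control and 69.6% ± 2.46 in low glutamine (SD, n = 3 each). The share of Defa17 was 35.4% ± 3.58 and 35.6% ± 3.90, that of Defa24 34.2% ± 3.43 and 20.1% ± 2.76, and that of Defa6 20.4% ± 5.16 and 13.9% ± 4.10. The other defensin rows summed to 213, 282 and 159 RPKM in the control libraries and 2930, 2833 and 2290 in the low glutamine libraries. That is a ratio of 12.3, from 218 ± 61.8 to 2684 ± 345 RPKM. These other rows include Defa3 and Defa30, the closest copies of Defa17 and Defa24, so the shares depend on how reads were divided. Defa30 averaged 43.2 RPKM in control and 899 in low glutamine, and Defa3 51.3 and 340. Summed with its copy, Defa17 had a ratio of 4.29 and Defa24 one of 3.45. Not every scarcer row rose more steeply than Defa17: the ratio of group means was 2.69 for Defa32, 3.81 for Defa27 and 3.93 for Defa20, against 4.13 for Defa17. Only 3 defensin rows had a group mean over 100 RPKM in control, and 11 did in low glutamine. Ranked by log2 fold change among the 11082 tested genes, 7 defensin rows stood in the first 20 and 15 in the first 100. Close copies share reads, such as Defa23 with Defa31 (ranks 3 and 5) and Defa36 with Defa37 (12 and 14), so these rows are not independent. Defa5 (rank 9) and AY761184 (rank 64) passed the filter only through their low glutamine values.

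Defa23 and Defa31, whose transcripts are identical over their shared bases, had the highest log2 fold changes of the set on the log2(RPKM + 1) scale. By the ratio of group means, Mptx2 (49.8) and Defa5 (45.2), both scarce in control, stood above Defa23 (33.5), as they did with a pseudocount of 0.1. Defa23 measured 7.79, 7.28 and 7.02 RPKM in control and 260, 245 and 236 in low glutamine, with a log2 fold change of 4.89 ± 0.06 (limma adjusted p = 1.6e-14). Defa31 had a log2 fold change of 4.88, and reads from the 377 bases that the pair shares cannot be assigned to 1 of them. Summed, the pair went from 13.9 ± 0.746 to 467 ± 20.9 RPKM, a ratio of 33.6. No library of either group stood apart.

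Copies of the Defa36 type formed the next group. Summed over Defa34, Defa35, Defa36, Defa37, Defa5 and Gm15293, they had 23.9, 24.1 and 19.5 RPKM in control and 445, 419 and 415 in low glutamine, a ratio of 19.0. Defa36 alone went from 8.14, 9.38 and 8.31 RPKM to 192, 183 and 210. The log2 fold change of Defa36 was 4.35 ± 0.07 (limma adjusted p = 1.3e-13). Defa5 had the highest ratio of group means among the tested defensins, 45.2, from 0.654, 0.917 and 1.36 RPKM to 53.5, 40.8 and 38.3. Its control values rest on an estimated 7.68 to 12.5 reads per library, so this ratio is imprecise. Defa21 and Defa22, whose exons differ most from that of Defa17 among those of 110 bases, went as a pair from 11.0 ± 2.07 to 147 ± 14.7 RPKM, a ratio of 13.3.

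Defa24 and Defa30 are close copies with unlike fold changes. Their transcripts were 98.2% identical over 397 bases. Defa30 measured 46.3, 45.8 and 37.5 RPKM in control and 951, 936 and 810 in low glutamine. Its log2 fold change was 4.35 ± 0.09 (limma adjusted p = 1.0e-12), against 1.27 for Defa24. The ratio of group means was 20.8 for Defa30 and 2.42 for Defa24, and 3.45 for their sum. The difference between these fold changes was not tested.

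Except for Gm14851, the remaining copy groups had ratios between that of Defa24 with Defa30 and that of Defa21 with Defa22. Gm14851, an alpha-defensin row taken up below, had a ratio of 17.3. Defa2, Defa20, Defa32 and Defa33 summed to 60.5 ± 4.50 RPKM in control and 327 ± 20.3 in low glutamine, a ratio of 5.40. Within this group the log2 fold change was 3.21 for Defa2, 2.50 for Defa33, 1.94 for Defa20 and 1.34 for Defa32. Defa26 with its close copy Gm15292 went from 8.67 ± 0.919 to 45.8 ± 2.0 RPKM, a ratio of 5.28. The Defa25, Defa27 and Defa28 group stayed low, at 1.47 ± 0.721 and 6.36 ± 4.70 RPKM. AY761184 rose from 0.984 ± 0.460 to 8.61 ± 0.690 RPKM and Defa29 from 3.86 ± 2.72 to 17.2 ± 7.20 (limma adjusted p = 1.2e-08 and 1.6e-04). Defa-ps1, which is annotated as a pseudogene by its name, rose from 0.319 ± 0.0192 to 2.60 ± 0.482 RPKM (limma adjusted p = 3.4e-08).

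**Figure D2:**
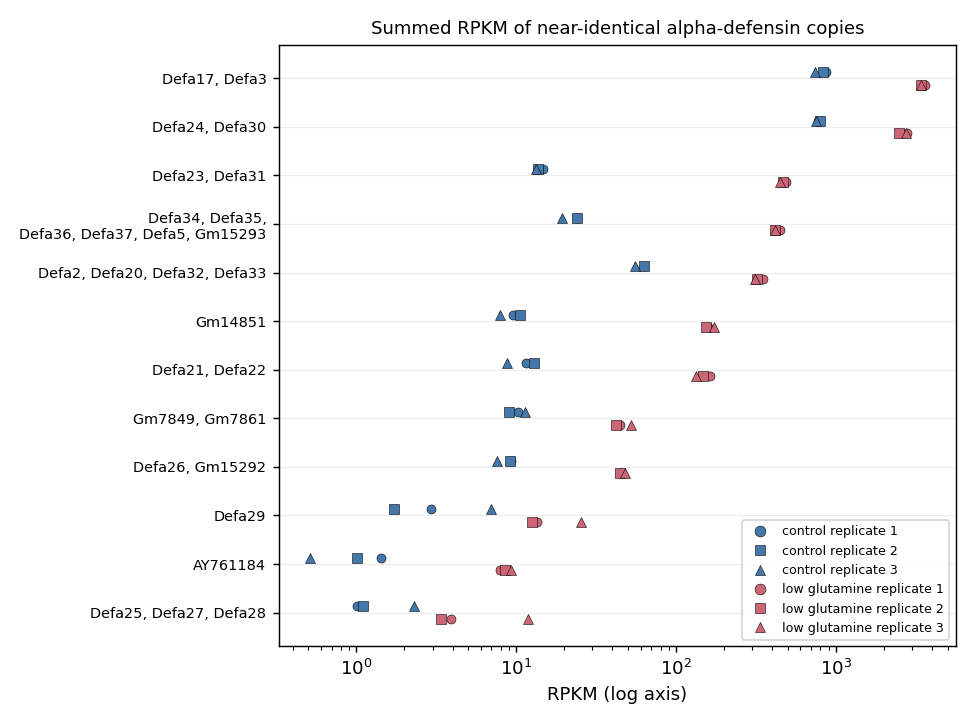
Summed RPKM (log axis) of groups of alpha-defensin copies joined at 98% transcript identity or more, in 3 control (blue) and 3 low glutamine (red) libraries; Gm symbols are rows that RefSeq names as alpha-defensins. Every group sum is higher in all red than in all blue libraries, by the widest ratio for Defa23 with Defa31 (33.6) and a narrower one for Defa24 with Defa30 (3.45).

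Abundant and scarce copies alike were higher in low glutamine. Across the 24 tested defensins, the Spearman correlation of the control mean with the log2 fold change was 0.11, and that with the ratio of group means was -0.29, both descriptions over rows that share libraries and reads. The ratio of group means ran from 2.42 to 45.2 and exceeded 10 for 10 of the 24. Log2 fold changes on the log2(RPKM + 1) scale understate the change of rows near or below 1 RPKM.

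**Figure D3:**
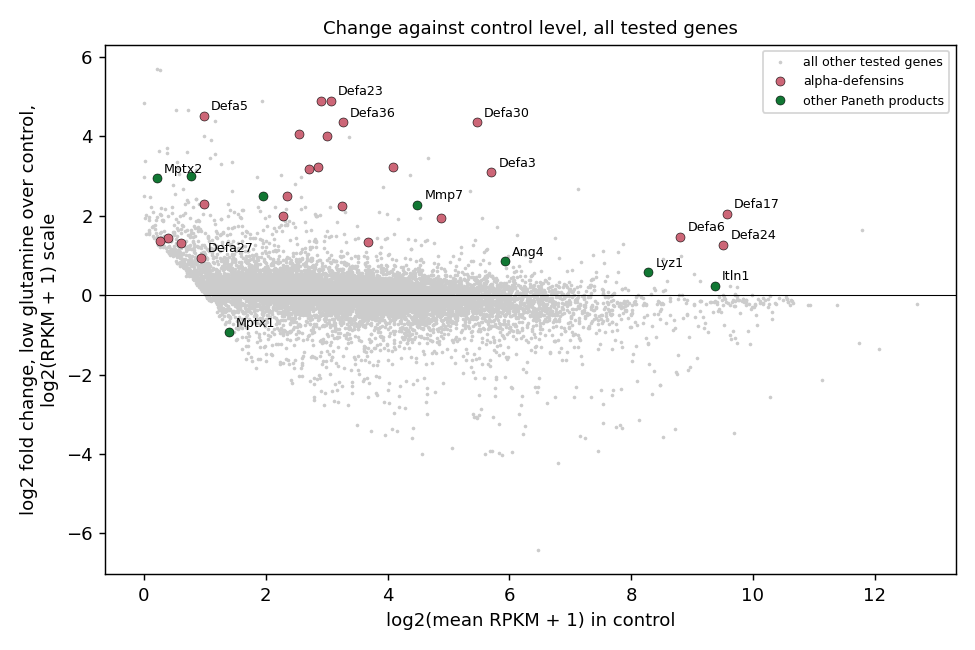
Log2 fold change of low glutamine over control against the control level, both on the log2(RPKM + 1) scale, for 11082 tested genes (grey), 24 alpha-defensins (red) and 8 other Paneth products (green). Red points lie above 0 at every control level, the 3 abundant ones (Defa17, Defa24, Defa6) between 1.27 and 2.04.

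Replicate 3 differed from replicates 1 and 2 in the same direction in both groups for a few defensin rows. Defa3 measured 38.5, 109.5 and 5.74 RPKM in control and 463, 477 and 80.7 in low glutamine, so replicate 3 was the lowest of each group. Its log2 fold change was 3.09 ± 0.84 (limma adjusted p = 0.0064), and the low glutamine replicate 3 fell below a control library. The Defa3 fold change rested on single libraries: it was 1.99 without control replicate 3, 4.01 without control replicate 2 and 3.93 without low glutamine replicate 3, with limma adjusted p of 0.030, 4.1e-05 and 0.0069. Defa27 measured 0.146, 0.601 and 2.0 RPKM in control and 0.521, 1.78 and 8.17 in low glutamine, where replicate 3 was the highest of each group. It was the 1 tested defensin that did not pass (log2 fold change 0.94 ± 0.51, limma adjusted p = 0.12), and its libraries held an estimated 1.29 to 65.1 reads. With the replicate number as a block, 24 of 24 defensins and 69.8% of all tested genes were called, but that fit gave an infinite prior df and so took no account of the spread of single genes. With a robust prior the blocked limma adjusted p of Defa27 was 0.15. In Defa29, replicate 3 was also the highest, with 2.92, 1.72 and 6.93 RPKM in control and 13.5, 12.6 and 25.5 in low glutamine. A shift of replicate 3 by more than 1.5-fold, one way in both groups, occurred in 4 of the 24 defensins (Defa3, Defa6, Defa27 and Defa29), in 0 of the 8 other products, and in 0.244% of all tested genes. Transcripts of Defa17 and Defa3 differ at 1 of 397 aligned bases. The sum of these 2 rows was 865, 829 and 736 RPKM in control and 3593, 3405 and 3414 in low glutamine. Defa17 made up most of it, so its spread says little about Defa3. In control the SD was 66.4 for the sum and 58.7 for Defa17 alone, and in low glutamine 106 and 203. Without replicate 3 of both groups, 24 of 24 defensins were called higher with a median log2 fold change of 2.24. What set replicate 3 apart in these rows was not tested.

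**Figure D4:**
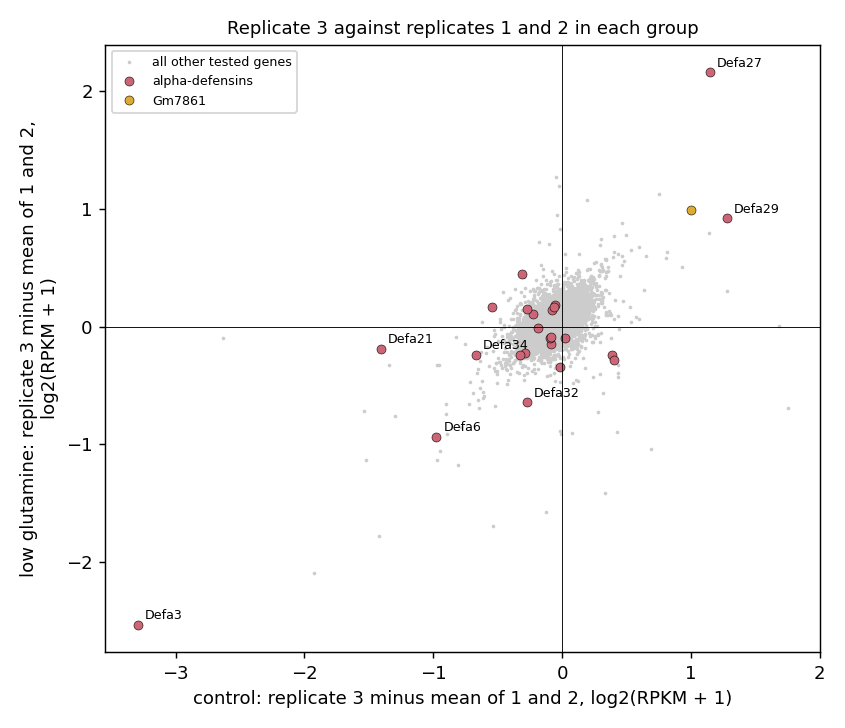
Deviation of replicate 3 from the mean of replicates 1 and 2 in control (horizontal) and in low glutamine (vertical), both in log2(RPKM + 1), for all tested genes (grey), alpha-defensins (red) and Gm7861 (yellow). Defa3 and Defa6 lie in the lower left, and Defa27, Defa29 and Gm7861 in the upper right, away from most grey points.

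Alpha-defensin rows under other symbols rose too, while the tested rows of the span without an alpha-defensin symbol in RefSeq did not pass. The 25 set rows with a RefSeq position lie between 19210462 and 21735471 on chromosome 8 (GRCm38.p6). In that span lie 21 other rows, of which 5 are alpha-defensins in RefSeq: Gm14851 (Defa38 there), Gm15292 (Defa40), Gm15293 (Defa41), Gm7849 (Defa42) and Gm7861 (Defa43). Gm14851 measured 9.58, 10.5 and 7.89 RPKM in control and 159, 153 and 173 in low glutamine, with a log2 fold change of 3.98 ± 0.09 (limma adjusted p = 1.7e-12). Gm7849 and Gm7861, the other tested rows of these 5, rose as well, with log2 fold changes of 2.08 and 1.51 (limma adjusted p = 2.1e-10 and 8.6e-04). The remaining 16 rows had no alpha-defensin symbol in RefSeq, and 10 of them, 7 beta-defensins included, were listed at 0 in every library. The 2 that were tested are transcribed pseudogenes and neither passed: 6820431F20Rik had 34.7 ± 2.33 and 34.9 ± 2.27 RPKM (limma adjusted p = 0.91), and 2610005L07Rik had 6.11 ± 0.0934 and 5.88 ± 0.267 (limma adjusted p = 0.44). They end at 20297432 and 20424814, while the first tested defensin with a RefSeq position, Defa21, starts at 21025545. They are therefore not close neighbours of the tested defensins.

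Because the copies moved together, their promoters are shown over the 250 bases before the RefSeq start (GRCm38.p6). Capitals mark CTTTGAT or CTTTGTT, the core bound by TCF/LEF factors, and TATAAA, the TATA box, on either strand. ATCAAAG is CTTTGAT read on the other strand. By single row, Defa20 stands for a lower fold change, Defa23, Defa30 and Defa36 for higher ones, and Lyz1 for a Paneth product outside the array.
Defa20: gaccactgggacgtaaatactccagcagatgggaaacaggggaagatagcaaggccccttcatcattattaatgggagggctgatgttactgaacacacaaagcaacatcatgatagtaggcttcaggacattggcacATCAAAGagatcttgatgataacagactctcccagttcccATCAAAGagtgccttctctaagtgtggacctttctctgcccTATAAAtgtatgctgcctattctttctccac
Defa23: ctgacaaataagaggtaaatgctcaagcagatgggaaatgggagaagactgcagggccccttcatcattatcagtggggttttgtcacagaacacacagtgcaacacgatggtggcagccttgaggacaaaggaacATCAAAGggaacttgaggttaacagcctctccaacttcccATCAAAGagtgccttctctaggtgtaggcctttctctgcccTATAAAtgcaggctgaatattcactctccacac
Defa30: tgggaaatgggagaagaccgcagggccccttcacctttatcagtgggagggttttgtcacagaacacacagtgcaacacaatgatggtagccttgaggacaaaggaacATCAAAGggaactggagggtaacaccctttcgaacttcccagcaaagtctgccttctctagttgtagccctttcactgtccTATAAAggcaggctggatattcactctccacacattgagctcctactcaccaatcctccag
Defa36: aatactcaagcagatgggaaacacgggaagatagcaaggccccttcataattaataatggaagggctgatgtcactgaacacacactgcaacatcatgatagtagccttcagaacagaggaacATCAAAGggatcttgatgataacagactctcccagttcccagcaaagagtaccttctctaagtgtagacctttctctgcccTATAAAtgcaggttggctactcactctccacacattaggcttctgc
Lyz1: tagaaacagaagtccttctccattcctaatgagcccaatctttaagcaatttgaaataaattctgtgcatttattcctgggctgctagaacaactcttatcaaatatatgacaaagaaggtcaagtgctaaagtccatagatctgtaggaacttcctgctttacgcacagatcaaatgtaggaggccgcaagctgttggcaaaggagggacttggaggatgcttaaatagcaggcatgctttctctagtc
These windows lie at chr8:21509008-21509257, chr8:21054790-21055039, chr8:21134400-21134649 and chr8:21427178-21427427 on the plus strand, and for Lyz1 at chr10:117292869-117293118 on the minus strand. Of the defensin rows of the set, 12 had a promoter entry, and 12 of 12 held the TCF/LEF core, against 8.06% of 32851 promoters. Defa17, Defa24 and Defa6, which dominated the defensin RNA of control organoids, had no entry, nor did Defa3. Their promoters were therefore not examined. TATAAA was in 11 of 12, not in Defa28, against 12.4% of all promoters. An E-box of CAGCTG or CAGATG, the letters bound by basic helix-loop-helix factors, was in 11 of 12, not in Defa30, against 25.5%. The 12 windows descend from shared sequence and do not count as independent. Among the other products, the TCF/LEF core lay in promoters of 2 of 8 genes, Mptx1 and 1 of the 2 starts listed for Mmp7. Gm14851, Gm7849 and Gm7861, which rose, had no TCF/LEF core in this window. The windows of Defa2 and Defa20 were 100% identical over 250 bases, and those of Defa2 and Defa32 over 248. The log2 fold changes of these rows were 3.21, 1.94 and 1.34. Their transcripts were 99.5% to 99.8% identical, so these row values depend on how reads were divided among the copies. Summed with Defa33, the ratio was 5.40, and differences between the rows were not tested. A match of letters is a description of the window and not a binding site.

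The other Paneth products rose by smaller and more varied amounts. Of 9 rows, 8 were tested, 7 were higher, and Mptx1 was lower, with a median log2 fold change of 1.57. Pla2g2a and Mptx2 had a control mean under 1 RPKM and passed the filter only through their low glutamine values. The median includes both, and theirs were the highest log2 fold changes of the 8 (3.00 and 2.95). Of the 6 with a control mean of at least 1 RPKM, 5 were higher, with log2 fold changes of the 6 from -0.93 to 2.48. The libraries of the groups did not overlap for any of the 8. Both shares stand against the background of 36.1% higher and 30.3% lower given by the fit over all tested genes, with non-overlap in 38.9% upward and 31.3% downward.

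Mmp7, the protease that activates the cryptdins, rose by an amount near the defensin median. It measured 22.1, 21.2 and 20.9 RPKM in control and 106, 103 and 114 in low glutamine. The log2 fold change was 2.28 ± 0.06 (limma adjusted p = 5.2e-12), and its libraries were tight within each group. Lyz1, the Paneth cell lysozyme that digests bacterial peptidoglycan, measured 308, 294 and 327 RPKM in control and 446, 430 and 510 in low glutamine. Its log2 fold change was 0.57 ± 0.08 (limma adjusted p = 3.2e-05), smaller than that of Mmp7. The ratio of Lyz1 to Mmp7 RPKM was 13.9, 13.9 and 15.7 in the control libraries and 4.21, 4.18 and 4.49 in the low glutamine libraries. The summed defensin RPKM over that of Lyz1 was 7.58, 7.68 and 5.72 in control and 21.0, 20.4 and 16.3 in low glutamine. In neither ratio did the groups overlap. Lyz2, the lysozyme of macrophages and close paralog of Lyz1, was not tested, with 0.405, 0.424 and 0.596 RPKM in control and 0.493, 0.228 and 0.209 in low glutamine.

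The lectin, the ribonuclease and the phospholipase spanned the range. Itln1 encodes intelectin, a lectin that binds microbial sugars, and was the most abundant of these products. It measured 684, 678 and 630 RPKM in control and 788, 760 and 790 in low glutamine, a log2 fold change of 0.23 ± 0.07 (limma adjusted p = 0.0092), and it did not pass when low glutamine replicate 1 was left out (limma adjusted p = 0.053). Ang4, a secreted ribonuclease of the angiogenin family with bactericidal activity, measured 56.7, 61.9 and 61.5 RPKM in control and 109, 97.9 and 124 in low glutamine. That is a log2 fold change of 0.86 ± 0.08 (limma adjusted p = 1.1e-06). Pla2g2a is named for the secreted phospholipase that attacks bacterial membranes and is a known modifier of tumour number in Apc Min mice. RefSeq lists it as a transcribed pseudogene in the reference genome, so its RNA need not stand for an active enzyme. It went from 0.726, 0.498 and 0.928 RPKM to 11.7, 11.9 and 14.4, a log2 fold change of 3.00 ± 0.10 (limma adjusted p = 5.2e-11), and was tested only because of its low glutamine values.

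The mucosal pentraxins Mptx1 and Mptx2, paralogs of the pentraxin family of pattern-binding proteins, moved in opposite directions. Mptx2 was at 0.325, 0.0864 and 0.0682 RPKM in control and at 7.48, 6.91 and 9.49 in low glutamine, with a log2 fold change of 2.95 ± 0.11 (limma adjusted p = 1.8e-10). Mptx2 too was tested only because of its low glutamine values. Mptx1 measured 1.87, 1.33 and 1.67 RPKM in control and 0.229, 0.265 and 0.654 in low glutamine. It fell by 0.93 ± 0.11 on the log2 scale (limma adjusted p = 1.5e-05). Mptx1 was the only tested row of the set that fell. Habp2, a secreted hyaluronan-binding serine protease, rose from 3.01, 2.80 and 2.84 RPKM to 20.1, 19.9 and 22.1, a log2 fold change of 2.48 ± 0.06 (limma adjusted p = 2.6e-12).

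**Figure D5:**
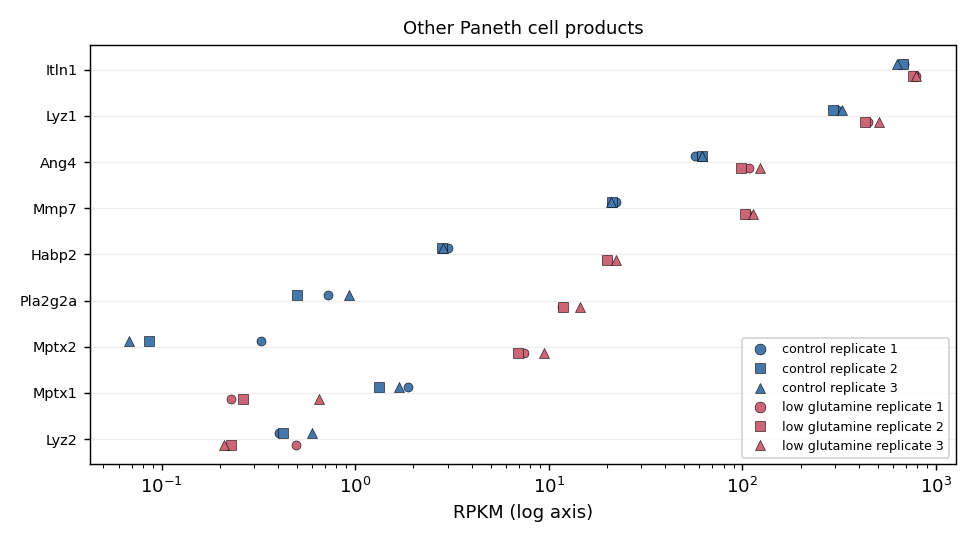
RPKM of the 9 other Paneth products (log axis) in 3 control (blue) and 3 low glutamine (red) libraries. Red lies to the right of blue for 7 genes, to the left for Mptx1, and overlaps it for Lyz2, which was below the filter for testing.

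Genes of Paneth and secretory fate, listed with some Paneth cell products and surface markers, moved in both directions. Of 21 such genes, 20 were tested, with 10 higher and 8 lower, against 36.1% and 30.3% of all tested genes. Their median log2 fold change was 0.10, and -0.03 with no filter on low values. Clps, the pancreatic lipase cofactor colipase, which Paneth cells also make, rose from 19.8 ± 1.34 to 168 ± 6.53 RPKM, a log2 fold change of 3.02. Ephb3 and Kit are receptor tyrosine kinases found on Paneth cells. Ephb3 rose from 6.83 ± 0.689 to 21.0 ± 0.465 RPKM, and Kit rose by 1.33 on the log2 scale. Tcf4, which encodes the helix-loop-helix factor E2-2, rose by 0.87. Fzd5, the Wnt receptor needed for Paneth maturation, fell by 1.05 on the log2 scale. The secretory master regulator Atoh1 fell by 0.67, its target Spdef by 0.45 and the secretory stress factor Xbp1 by 0.30. The other genes that fell were the Wnt effector Tcf7l2 (by 0.44), the stress sensor Ern2 (by 0.31), Nupr1 (by 0.28) and the autophagy gene Atg5 (by 0.26). For these 12 genes the limma adjusted p lay between 9.6e-13 and 8.4e-04. Gfi1, a factor of early secretory progenitors, was under the filter, at 0.841 ± 0.238 and 0.771 ± 0.0466 RPKM, and is named for its known role.

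Genes through which Paneth cells signal to their neighbours, or receive signals, were also split. Of 13 niche genes, 8 were tested, with 3 higher and 5 lower, against 36.1% and 30.3% of all tested genes. Their median log2 fold change was -0.19. The sign of this median turned with the filter: it was 0.18 over all 13 genes with no filter and 0.13 over the 6 that averaged 5 RPKM. Wnt3, a Wnt ligand of Paneth cells, went from 3.64, 3.89 and 3.29 RPKM to 7.61, 7.73 and 7.74. Dll4, a Notch ligand of Paneth cells, went from 3.14, 3.45 and 3.02 RPKM to 6.93, 6.67 and 7.26. Both rose by 0.92 on the log2 scale (limma adjusted p = 3.9e-08 and 3.6e-08). Bst1, an ectoenzyme that Paneth cells use to signal to stem cells, went the other way, from 5.87, 6.12 and 5.82 RPKM to 0.164, 0.0910 and 0.242. It fell by 2.57 on the log2 scale (limma adjusted p = 8.4e-12). The fibroblast growth factor receptor Fgfr3 rose by 0.40, and the interleukin receptor chain Il13ra1 fell by 0.45 (limma adjusted p = 4.5e-05 and 2.4e-05).

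Antimicrobial proteins listed as made outside Paneth cells moved in both directions. Which cells made them here was not examined. Of 32 such genes, some of them also neutrophil markers, 14 were tested. Of the 14, 8 were higher and 6 lower, against 36.1% and 30.3% of all tested genes. Called higher with a log2 fold change of at least 2 were 4 of the 14, against 0.929%. The median log2 fold change of the 14 was 0.20. Of the 12 with a control mean of at least 1 RPKM, 6 were higher, and the other two, Reg1 and Dmbt1, passed the filter only through their low glutamine values. The Reg family of secreted lectins took both directions. Reg1 went from 0.166, 0.147 and 0.159 RPKM to 58.2, 55.1 and 64.3, a log2 fold change of 5.70 ± 0.06 (limma adjusted p = 8.8e-15). Reg3b rose by 3.35 and Reg3g by 3.03 on the log2 scale (limma adjusted p = 3.2e-13 and 2.9e-12). Reg3a, by contrast, fell from 4.60 ± 0.309 to 0.818 ± 0.105 RPKM (limma adjusted p = 7.3e-10). Dmbt1, a scavenger receptor that binds bacteria, rose by 2.68, and Sprr2a3, a small proline-rich protein of enterocytes, fell by 2.14 (limma adjusted p = 2.9e-11 and 1.2e-10). The goblet cell lectin Zg16 fell by 1.93, and the peptidoglycan-binding protein Pglyrp1 rose by 0.94 (limma adjusted p = 2.1e-10 and 7.4e-08). Pglyrp1 is named here after its values were seen. The inflammasome gene Nlrp6 fell by 0.91, Lypd8, which binds flagella, by 0.87 and the beta-defensin Defb37 by 0.94 (limma adjusted p = 3.5e-08, 1.2e-07 and 8.0e-05).

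Innate sensing and cytokine receptor genes, which carry the bacterial and cytokine signals known to act on Paneth cells, changed little by comparison. Of 22 genes, 16 were tested, with 4 higher and 9 lower, against 36.1% and 30.3% of all tested genes. Their median log2 fold change was -0.19, with a range from -0.84 to 0.66. The toll-like receptor adaptor Ticam1 fell by 0.81, the kinase Irak4 by 0.58, the interferon gamma receptor chain Ifngr2 by 0.58 and the flagellin receptor Tlr5 by 0.84 (limma adjusted p between 9.7e-08 and 1.5e-06). Nfkbia, the inhibitor of NF-kappaB, rose by 0.66 (limma adjusted p = 1.0e-06). The NF-kappaB subunits Rela and Nfkb1 rose by 0.36 and 0.18, and Tlr3, a sensor of double-stranded RNA, by 0.31 (limma adjusted p = 7.2e-04, 0.020 and 8.8e-04). Myd88, the adaptor of most toll-like receptors, had 7.93 ± 0.0452 and 7.14 ± 0.519 RPKM and did not pass (limma adjusted p = 0.055; 0.042 with the replicate number as a block). Nod2, the muramyl dipeptide sensor of Paneth cells, was under the filter, at 0.273 ± 0.0450 and 0.518 ± 0.0448 RPKM, and is named here for its known role.

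Markers of other cells shifted in the same comparison, in which 36.1% of all tested genes were called higher and 30.3% lower. Crypt base stem cell markers were higher for 12 of 12, with a median log2 fold change of 0.95, led by Tnfrsf19 (4.39), Lgr5 (1.39), Axin2 (1.17), Msi1 (1.10) and Znrf3 (0.91) in order of p. Enteroendocrine markers were higher for 11 of 14, with a median of 1.72, led by Neurog3, Tac1, Ghrl, Chgb and Tph1 (2.04 to 2.73), and Nts, Gcg and Pyy were lower. Of 4 tested tuft cell markers, Pou2f3, Avil and Trpm5 were higher and Il17rb was lower, but Avil and Trpm5 passed the filter only through their low glutamine values. Goblet cell markers were lower for 11 of 13, with a median of -1.05, led by Guca2a (-2.73), Fcgbp (-1.67), Zg16 (-1.93), Muc2 (-1.05) and Agr2 (-1.08), and Creb3l1 was the 1 that rose. Enterocyte markers were lower for 13 of 15, with a median of -2.56, among them Lct (-3.51), Sis (-3.38), Slc2a5 (-2.70) and Apoa1 (-3.15), and Alpi and Anpep rose. The part of these shifts in the defensin values was not tested. Markers of blood cells were scarce. None of 12 neutrophil markers passed the filter, 5 of them were listed at 0 everywhere, and their summed level was 0.108 to 0.404 RPKM in control and 0.141 to 0.370 in low glutamine. Of 16 macrophage and immune markers, Cd68 and Cd14 were tested and called higher, but both had a control mean under 1 RPKM and passed the filter only through their low glutamine values, while Adgre1, C1qc and Tyrobp were at 0 everywhere. Their summed level was 2.66 to 2.75 RPKM in control and 4.87 to 6.04 in low glutamine. Of 12 stromal markers, Vim was tested and rose, while Col3a1 and Lum were at 0 everywhere.

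The libraries were of similar depth. Estimated from the smallest steps between low values of single-exon genes, they held about 24400000 to 35400000 reads in control and 28300000 to 34000000 in low glutamine, where 68.1% to 71.5% of low values came out whole within 0.02 of a read. The lowest estimate of each group was replicate 3. RPKM summed to 362217 to 370158 per control library and to 327956 to 347248 per low glutamine library. Of all calls, 54.4% were higher in low glutamine, 69.0% when each library was scaled to a common RPKM sum, and 74.5% when Rn45s and the set were left out of that sum. The median log2 fold change of all tested genes was then 0.14 and 0.20. Under these scalings the median of the defensins was 2.50 and 2.55, and no row of the set changed direction.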

How the data were processed

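RNA from 3 control and 3 low glutamine organoid libraries was compared, grouped by the labels' sample titles. The values are RPKM per gene symbol, deposited by the authors as 1 table. Named in the submitters' processing notes, without roles, are the mm10 build, Partek, HISAT2 2.0.4 and CASAVA 1.8. Whether counting used strand is not stated there. The Qiagen RNA extraction and TruSeq chemistry are per the labels' protocols. Value columns matched to no sample numbered 0.

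RPKM are not counts, so limma 3.58.1 (R 4.3.3; empirical Bayes, variance trend, two-sided) was run on log2(RPKM + 1) for 11082 rows with a mean of at least 1 RPKM, calling genes at 0.05 after Benjamini-Hochberg adjustment. The fit was tested on simulated data with known changes. Reads per row were estimated from single-exon genes, and such estimates cover counting error only. Rows were matched to RefSeq (GRCm38.p6) by symbol for 25 of 28 defensins (not AY761184, Defa4 or Defa6) and 9 of 9 other products. Copies were joined at 98% identity of GENCODE M21 transcripts. No protein sequences were used.

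Every row of the set is accounted for. From each other list, up to 5 genes with the smallest p and all genes called against its majority were named, which passes the limit of 6 names a list set beside that rule. A gene that this rule selects is not reported here. The set and lists were chosen with earlier results of these data known. The main fit did not pair libraries by replicate number. Deviations from the group means of same-numbered libraries correlated at 0.15, 0.25 and 0.57. Control replicate 2 correlated better with low glutamine replicate 1 (0.36), and control replicate 1 with low glutamine replicate 2 (0.20). Whether the numbers pair the libraries was thus not settled, and they served as a block only in an alternative fit. Alternatives were other pseudocounts (0.1, 5), filters (none, 5 RPKM), 4 scalings, no variance trend, a replicate block and leaving out each library. Leaving out replicate 3 of both groups, a robust prior for the block, and sums with other rows were chosen after seeing the data. SD is over 3 libraries.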

Additional observations from a re-analysis of the deposited data

How the results depend on the processing

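All 24 tested defensins and 8 tested other products kept their direction under every alternative that could be fitted: 564 values kept their side of the threshold, 3 gained and 2 lost a call. With no filter, Defa3 did not pass (limma adjusted p = 0.084) and 22 defensins were called. Without low glutamine replicate 1, Itln1 did not pass (0.053) and Defa27 did (log2 fold change 1.52, 6.6e-04). Without low glutamine replicate 3, its log2 fold change was 0.22 (0.64). Without replicate 3 of both groups, Defa27 passed as well (0.60, 0.041). With the replicate block, Defa27 passed (limma adjusted p = 1.7e-33, 24 of 24 defensins), but this fit had an infinite prior df and so did not use the spread of single genes. With a robust prior Defa27 did not pass (0.15) and 23 were called. The block changed 1 other named call, Myd88 (0.042). Leaving out single libraries moved the defensin median between 2.29 and 2.56 and the summed ratio between 3.84 and 4.27.

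The defensin median was 2.97 with a pseudocount of 0.1, 1.95 with 5 and 3.16 with a filter at 5 RPKM. The summed ratio was 4.48 with a common RPKM sum, 4.68 with Rn45s and the set left out of it, and 4.75 with quantile normalization. Leaving Rn45s and the set out also gave 6421 higher and 2202 lower genes in all, with 3 niche and 5 innate genes lower. The filter at 5 RPKM left fewer genes to test and gave 2532 higher genes in all. Lower were 0 other Paneth products, 5 genes of the fate and secretory list, 3 niche genes and 1 enteroendocrine marker. Called in either direction were 0 tuft and 0 macrophage markers. With no filter, 7 niche genes, 9 innate genes and 5 tuft markers were higher, 6 macrophage markers were called (5 higher, 1 lower), and 3 stromal markers (2 higher, 1 lower). Few reads limit Defa27, Defa35, Defa28, AY761184 and Defa5, with 1.29 to 13.8, 1.72 to 3.48, 2.97 to 10.8, 6.30 to 22.5 and 7.68 to 12.5 estimated reads per control library.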

Other observations

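Some scarce defensin rows still had values above 0 in every library, which can be fractional shares of reads divided among copies. Defa35 measured 0.280, 0.122 and 0.218 RPKM in control and 3.24, 1.35 and 1.96 in low glutamine, and Defa28 measured 0.867, 0.396 and 0.304 RPKM in control and 3.38, 1.61 and 3.60 in low glutamine. AY761185, a row of the same span that RefSeq does not name as an alpha-defensin, stayed under the filter with 0.132, 0.233 and 0.169 RPKM in control and 0.544, 0.250 and 0.947 in low glutamine. Among ligands under the filter, Csf1 measured 0.0724, 0.0703 and 0.0370 RPKM in control and 0.897, 0.899 and 1.10 in low glutamine, and Wnt6 measured 0.0310, 0.0137 and 0 RPKM in control and 0.540, 0.426 and 0.513 in low glutamine. Egf, an epidermal growth factor receptor ligand also under the filter, overlapped between groups, with 0.201, 0.248 and 0.282 RPKM in control and 0.313, 0.279 and 0.325 in low glutamine. Tlr2, a sensor of bacterial lipoproteins, measured 0, 0.148 and 0.0574 RPKM in control and 1.03, 0.861 and 0.992 in low glutamine. These rows were chosen after their values were seen, and only Defa35 and Defa28 were tested.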
